A study of Homo sapiens with 62 samples.

Results

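The CDK9 inhibitor NVP-2 was tested for 4 h in AsPC-1 cells by SLAM-seq, and its effect was followed both in newly made RNA and in all RNA. The comparison rests on 9 of the 62 libraries of the series, chosen by their labels: 4 libraries of AsPC-1 treated with NVP-2 and 5 libraries treated with the solvent DMSO, both for 4 h. AsPC-1 is a human pancreatic ductal adenocarcinoma line used as a model of the classical subtype. Every library came from cells with the label FKBP12-F36V-FLAG-KLF5_sgEndogenousKLF5, in which the endogenous KLF5 gene was knocked out and KLF5 was supplied as a copy with a degron tag, so the controls carry that change too. The labels place all NVP-2 libraries in batch 2 and all DMSO 4 h libraries in batch 1, so treatment and batch cannot be told apart between them. Another control was therefore used, the 4 batch 2 libraries of the same cells that received dTAGv-1-NEG, the inactive analogue of the KLF5 degrader, for 4 h (replicates 3.1 to 3.4, called NEG here and experiment 3 in the plots, after the first part of their number). Both comparisons share the 4 NVP-2 libraries.

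CDK9 is the kinase of P-TEFb, which phosphorylates RNA polymerase II, NELF and SPT5 and releases the polymerase from its pause near the promoter into elongation. When the kinase is blocked, transcription of most genes stops early, and each transcript that is already present decays at its own rate. Transcripts that are made and degraded fast, such as those of immediate-early genes, MYC and MCL1, are known to fall first. SLAM-seq labels new RNA with 4-thiouridine (4sU), added here for 2 h, and alkylation of the RNA then turns labelled positions into T>C conversions in the reads. A fall in reads with T>C conversions reports less new RNA, and a fall in all reads reports less of the transcript itself.

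All reads summed to 165844167 to 194465380 per library after NVP-2, 82676553 to 132863981 in DMSO, and 152945354 to 196686986 in NEG. Libraries fell into 3 sets by the genes that varied most among controls, called A, B and C, with NVP-2 in sets A, A, B and B, DMSO in A, A, B, C and C, and NEG in A, A, B and B. DCLK1 tracked this split, at 19.8 to 43.6 CPM (counts scaled to library totals) in set B and at 0.38 to 1.55 CPM in sets A and C. For all other genes the library totals were adjusted by TMM factors. The DMSO libraries of set C are replicates 2.1 and 2.2. The ductal markers were EPCAM, KRT7, KRT8, KRT18, KRT19, CDH1 and CLDN4. They summed to 4984 to 10743 CPM after NVP-2, 3808 to 7299 in DMSO and 5583 to 8175 in NEG. Most of this sum was KRT8 and KRT18, with means of 3046 and 4102 CPM after NVP-2. CLDN4 was lower after NVP-2, with means of 54.2 CPM against 115 in DMSO and 120 in NEG. CDH1 had means of 7.29, 14.9 and 8.57 CPM in NVP-2, DMSO and NEG. The 6 fibroblast markers, mostly LUM, summed to at most 18.2, 15.4 and 11.8 CPM in these groups. The 6 immune markers, mostly CD68, summed to at most 25.1, 14.9 and 14.8. The endothelial markers PECAM1, VWF, CDH5 and KDR were at or near 0. The labels give replicate numbers of 2 parts and do not say which libraries came from separate cultures, so the p-values measure the spread between libraries, which may be technical. When libraries that share the first part of the number were summed, leaving 2 against 2, edgeR called 0 genes in all reads, with 2271 at an unadjusted p under 0.05.

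NVP-2 removed most of the newly made RNA. Reads with T>C conversions made up 1.91%, 1.48%, 1.55% and 1.35% of all reads in the 4 NVP-2 libraries (mean 1.57% ± 0.24, SD, n = 4). In the 5 DMSO libraries they made up 10.3%, 10.6%, 10.6%, 9.36% and 9.42% (10.1% ± 0.62, n = 5), and in the 4 NEG libraries 10.1%, 9.66%, 7.93% and 8.44% (9.03% ± 1.01, n = 4). No NVP-2 library came near any control, and the share after NVP-2 was 15.6% of that in DMSO. The difference was −8.48 percentage points against DMSO (two-sided exact permutation p = 0.00794, the smallest that 4 against 5 libraries allow, 0.0238 adjusted over 3 control groups) and −7.45 points against NEG (two-sided exact permutation p = 0.0286, the smallest that 4 against 4 allow, also after adjustment). Against DMSO libraries of batch 2 at 12 h, at 8.47% to 9.83%, it was −7.67 points (n = 4, exact permutation p = 0.0286). At this depth counting error is small: the Wilson 95% interval of the share in NVP-2 replicate 1.1 ran from 1.907% to 1.911%, which covers counting error only. No library without 4sU was used here, so how much of the remaining 1.57% came from labelling is unknown.

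**Figure D1:**
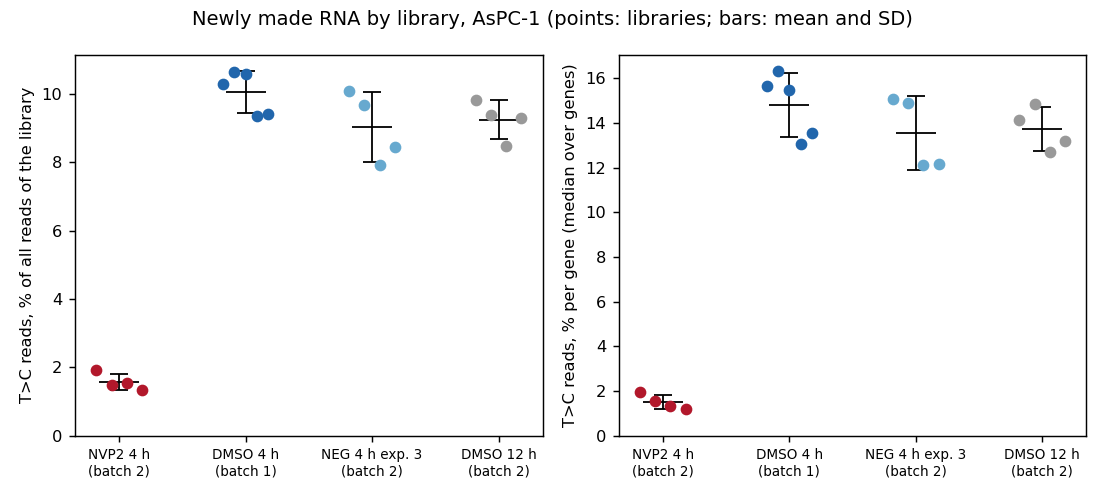
Percentage of reads with T>C conversions in each library for NVP-2, DMSO 4 h, NEG of experiment 3 and DMSO 12 h, over all reads of the library (left) and for the median gene (right), on axes that start at 0. Points are libraries and bars give mean and SD; the 4 NVP-2 libraries lie between 1.35% and 1.91% of all reads, below every control library.

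The loss was seen in most genes. For the median gene, the T>C share was 1.2% to 1.97% in the NVP-2 libraries, 13.1% to 16.3% in DMSO and 12.1% to 15.1% in NEG. The odds that a read carried a conversion were tested per gene in edgeR with the library as a block, which does not assume that the median gene stayed the same. They fell in 12000 of 14095 genes (85.1%) and rose in 7 (0.0497%), in all 85.2%, with a median change of −3.32 on the log2 scale. MYC, the transcription factor that drives growth genes, had a share of 69.8%, 71.2%, 73.1%, 68.4% and 69.2% in DMSO and of 27.1%, 9.55%, 23.3% and 22% after NVP-2. LARP7, a subunit of the 7SK complex that holds P-TEFb inactive, had a share of 10.7% to 14.3% in DMSO and of 0.43% to 0.59% after NVP-2. MYC lost 3.27 log2 units of odds (SE 0.33, edgeR adjusted p = 6.53e-07) and LARP7 lost more in odds, −4.72 (SE 0.18, edgeR adjusted p = 2.34e-09). The odds set T>C reads against the other reads of the gene, which also fell for MYC. In all reads the log2 fold change was −3.70 for MYC and 0.11 for LARP7. In T>C reads scaled to their own totals the order was the reverse, at −2.45 for MYC and −1.39 for LARP7.

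The 7 genes whose odds of a T>C read rose were CDC27P3, KIAA0895LP1, RPL11P3, RPL30P7, RPS27AP1, RPS2P5 and USP2-AS1, named because they are so few. Most are pseudogenes, whose reads can come from a near-identical parent gene and are uncertain for that reason. RPL11P3, a pseudogene of the ribosomal protein gene RPL11, had a T>C share of 3.48%, 36.8%, 3.85%, 39.3% and 41.7% in the DMSO libraries and of 50.8%, 84.2%, 40.4% and 40.8% after NVP-2. RPS2P5, a pseudogene of RPS2, had 0.46%, 12.0%, 24.1% and 20.3% after NVP-2, 1.97% to 2.40% in DMSO, and 18.3% in NEG 3.3 against 2.36% to 2.69% in the other NEG libraries. Both shares jumped between libraries of the same group, so their rise does not stand apart from the spread between libraries. At the other end, CDPF1 had 0 T>C reads among 2940 reads of the 4 NVP-2 libraries, which allows a share of up to 0.102%, and a share of 10.7% to 26.3% in DMSO. KCTD17, an adaptor of cullin ubiquitin ligases, and IFI35, an interferon-induced gene, also had 0 among 8727 and 5032 reads (up to 0.0344% and 0.0596%), from shares of at most 4.26% and 1.82% in DMSO, and 2 of the 5 IFI35 values and 1 of the 5 KCTD17 values in DMSO were 0 as well.

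A test of T>C reads scaled to their own totals does not show this fall, because the scaling sets the median gene to about no change. On that scale 2018 of 11498 genes (17.6%) were lower and 1488 (12.9%) were higher after NVP-2 than in DMSO. With the same T>C counts scaled by the totals and factors of all reads, 10743 of 11438 genes (93.9%) were lower and 5 (0.0437%) were higher, in all 94.0%, with a median log2 fold change of −3.08. RPS2P5 and RPL11P3 were again among the 5, next to LINC00926, a noncoding RNA, CSK, the kinase that restrains SRC kinases, and CFDP1, a chromatin protein, chosen after their values were seen. RAB1B, a GTPase of transport from the endoplasmic reticulum to the Golgi, shows the effect of the scale. Its T>C reads had a log2 fold change of 0.67 on the first scale (edgeR adjusted p = 0.257), while its T>C share was 0.25% to 0.40% after NVP-2 and 2.19% to 4.09% in DMSO.

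In all reads, which are mostly RNA made before the drug was added, a smaller group of transcripts was lost. Against DMSO, 1183 of 14095 genes (8.39%) were lower after NVP-2 and 484 (3.43%) were higher. Against NEG, 931 of 14237 genes (6.54%) were lower and 36 (0.253%) were higher. The sets A and B also split NEG and NVP-2 evenly, and with the set as a block the NEG comparison called 1635 genes lower (11.5%) and 271 higher (1.90%). Among 13931 genes tested against both controls, 807 (5.79%) were lower against both, which is 68.2% of the genes lower against DMSO and 86.7% of those lower against NEG. Between the controls themselves, NEG against DMSO, edgeR called 0 of 14186 genes, with 1276 at an unadjusted p under 0.05, and no other tool was run there. The count of 1667 genes (11.8%) called against DMSO in either direction fell to 837 without NVP-2 replicate 2.2, to 1081, 1032 and 918 without DMSO 1.2, 2.1 and 2.2, and to 568 without DMSO 2.1 and 2.2 together. The 967 (6.79%) called against NEG fell to 612 without NVP-2 2.2 and to 628, 598 and 609 without NEG 3.1, 3.2 and 3.4.

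Directions here are relative to the median gene, which the scaling places near 0 (median log2 fold change 0.06 against DMSO and 0.06 against NEG). Scaling instead on the genes with the least new RNA moved the median to −0.34 against DMSO, with 2427 genes lower and 74 higher. Against NEG it moved the median to −0.25, with 1613 genes lower (11.3%) and 10 higher (0.0702%). The lower calls grew in number on that scale, and the higher calls fell from 484 to 74 against DMSO. CPM are relative to the reads of a library, and the libraries had no spike-in, so the amount of RNA per cell was not measured.

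How much a transcript fell followed how much of it was new in control cells. Genes were put in 10 classes of equal size by their T>C share in the NEG libraries of batch 1, which enter neither comparison. In the class with the least new RNA the share was 4.90% or less, the median log2 fold change against DMSO was 0.57, and 0 of 1336 genes were lower. In the class with the most new RNA the share was 36.4% or more, the median was −1.13, and 652 of 1337 genes (48.8%) were lower against DMSO and 543 (40.6%) against NEG. The medians of the classes in between fell without exception, at 0.38, 0.27, 0.21, 0.12, 0.03, −0.08, −0.21 and −0.49 against DMSO. Over 13367 genes Spearman's rho between the share and the log2 fold change was −0.61 against either control, as a description across genes, which are not independent replicates and share the libraries of each group.

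**Figure D2:**
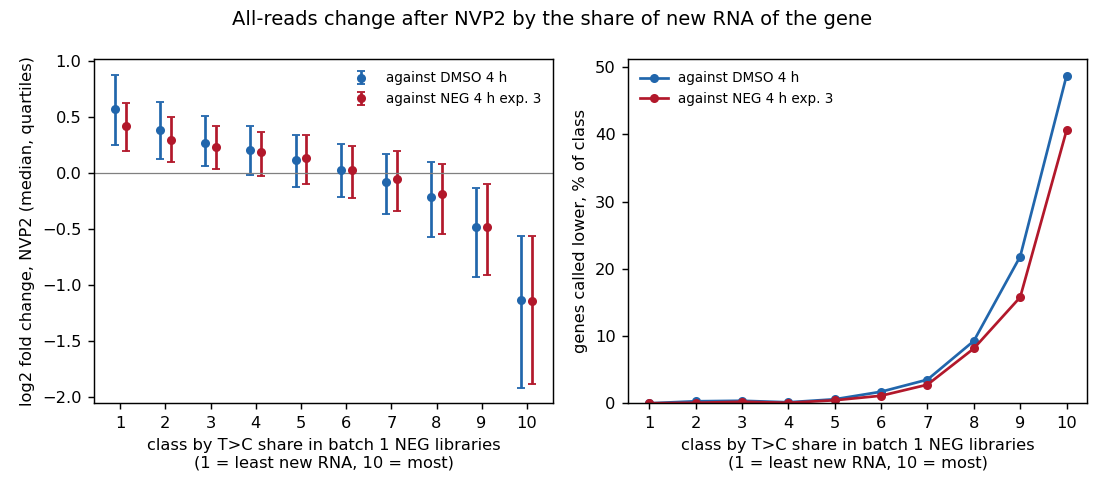
All-reads log2 fold change after NVP-2 (left, median with quartiles over genes) and percentage of genes called lower (right) in 10 classes of genes by their T>C share in batch 1 NEG libraries, from class 1 with the least new RNA to class 10 with the most. Blue is against DMSO 4 h, where medians run from 0.57 to −1.13 and up to 48.8% of a class is lower, and red is against NEG of experiment 3, which follows the same order.

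A few genes left this order, and are named after their values were seen. Among the 1337 genes with the highest T>C share, 4 were called higher against DMSO: RPL11P3, the antisense RNA SH3BP5-AS1, the cathepsin gene CTSK and the intronic transcript SND1-IT1. TAF6, a subunit of the general factor TFIID, DROSHA, the nuclease that starts miRNA maturation, and COMMD6 had T>C shares of 40.0%, 43.0% and 40.9% in DMSO, yet log2 fold changes of 0.21, 0.24 and 0.22, none past the threshold. Their shares after NVP-2 stayed at 25.1%, 38.5% and 37.9%, whereas the median gene was below 2% in each NVP-2 library. No library without 4sU was used, so how much of such shares came from labelling is unknown, and they may not be new RNA. Of the 4 genes lower in the class with the second least new RNA, MYO1D, SYT13, TFF1 and LAMB3, none was lower against NEG. TFF1, the trefoil peptide of mucous epithelium, had 0.30, 0.15, 0.67 and 0.71 CPM after NVP-2, 1.05, 1.29, 3.23, 3.26 and 2.45 in DMSO, and 0.32, 0.28, 0.50 and 0.51 in NEG. The batch 2 controls of TFF1 were thus as low as the NVP-2 libraries.

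Over 13931 genes tested against both controls, 1155 (8.29%) had all 4 NVP-2 libraries below all 9 control libraries. The transcripts that fell furthest were chosen among the 302 of these that were called lower against both controls and had at least 10 CPM in DMSO. The 10 with the lowest log2 fold changes against DMSO are described in order, and their values are in CPM of all reads. Since this contrast chose them, the values are descriptions of the loss and no support for it. SGK1, the serum- and glucocorticoid-induced kinase (chromosome 6, 134169248 to 134318112, minus strand), had 0.27, 0.26, 0.18 and 0.05 CPM after NVP-2. It had 3.2, 5.39, 2.09, 46.5 and 33.2 in DMSO and 8.43, 7.04, 0.57 and 1.32 in NEG. The high DMSO libraries were both of set C, so the log2 fold change of −6.56 (SE 1.14) shrank to −4.22 without them, to −5.84 without DMSO 2.1 alone and to −4.55 against NEG.

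MIR17HG, the host RNA of the miR-17-92 cluster (chromosome 13, 91347686 to 91397592, plus strand), had 1.1, 1.61, 0.51 and 0.87 CPM after NVP-2 and 25.7, 21.5, 24.5, 17.7 and 20.7 in DMSO. NEG lay at 25, 30.2, 21.3 and 21.1, and the log2 fold change was −4.42 (SE 0.34) against DMSO and −4.59 against NEG. DUSP6, the phosphatase that switches off ERK (chromosome 12, 89347235 to 89352501, minus strand), had 8.70, 6.77, 3.63 and 2.89 CPM against 105, 94.7, 102, 95.9 and 118 in DMSO. Its NEG libraries lay at 122, 131, 66.0 and 74.2, far above NVP-2 in each set. CCN1, a secreted matrix protein and serum response gene (chromosome 1, 85580761 to 85584589, plus strand), had 6.74, 5.53, 5.37 and 5.45 CPM against 44.7, 73.3, 41.8, 206 and 162 in DMSO, where set C was again highest and without which its log2 fold change was −3.20. IRX5, a homeobox factor (chromosome 16, 54930865 to 54934485, plus strand), had 1.17, 0.64, 0.94 and 0.64 CPM against 9.83, 18, 5.47, 20 and 15.6. The log2 fold changes against DMSO and NEG were −4.18 and −3.44 for CCN1 and −4.02 and −3.96 for IRX5.

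DDIT4, an inhibitor of mTORC1 induced by stress (chromosome 10, 72273919 to 72276036, plus strand), had 1.60, 0.79, 1.36 and 1.39 CPM after NVP-2 and 14.7, 17.5, 26.0, 22.6 and 22.2 in DMSO. ITPRIP, which binds the IP3 receptor (chromosome 10, 104309698 to 104338465, minus strand), had 0.92, 1.06, 0.48 and 0.34 against 7.47, 9.62, 7.98, 14.1 and 12.3. RGS2, which shortens G protein signals (chromosome 1, 192809039 to 192812275, plus strand), had 4.31, 5.06, 7.31 and 9.60 against 50.7, 53.2, 174, 91.6 and 97.7. All 3 lay below every control library because the choice required it, and RGS2 was higher in set B than in set A within each group. SPRY2, a feedback inhibitor of receptor tyrosine kinases (chromosome 13, 80335976 to 80341126, minus strand), had 1.31, 1.23, 1.2 and 0.83 CPM against 18.2, 11.1, 18.3, 11.6 and 15.5. RND3, a GTPase that opposes RhoA (chromosome 2, 150468195 to 150539011, minus strand), had 2.43, 3.57, 1.01 and 1.14 against 18.2, 16.6, 12.3, 40.4 and 45.8, and 9.57 to 17.9 in NEG. Log2 fold changes against DMSO were −4.0 for DDIT4, −3.87 for ITPRIP, −3.82 for RGS2 and −3.70 for both SPRY2 and RND3, and RND3 shrank to −2.64 against NEG and to −2.94 without set C. Before the drug, 41.7% to 60.6% of the reads of these 10 genes carried conversions in DMSO, where the share of the median gene was 13.1% to 16.3%. Each of the 10 was called in 20 of 21 alternative settings and lost in the 1 that summed the libraries to 2 against 2.

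**Figure D3:**
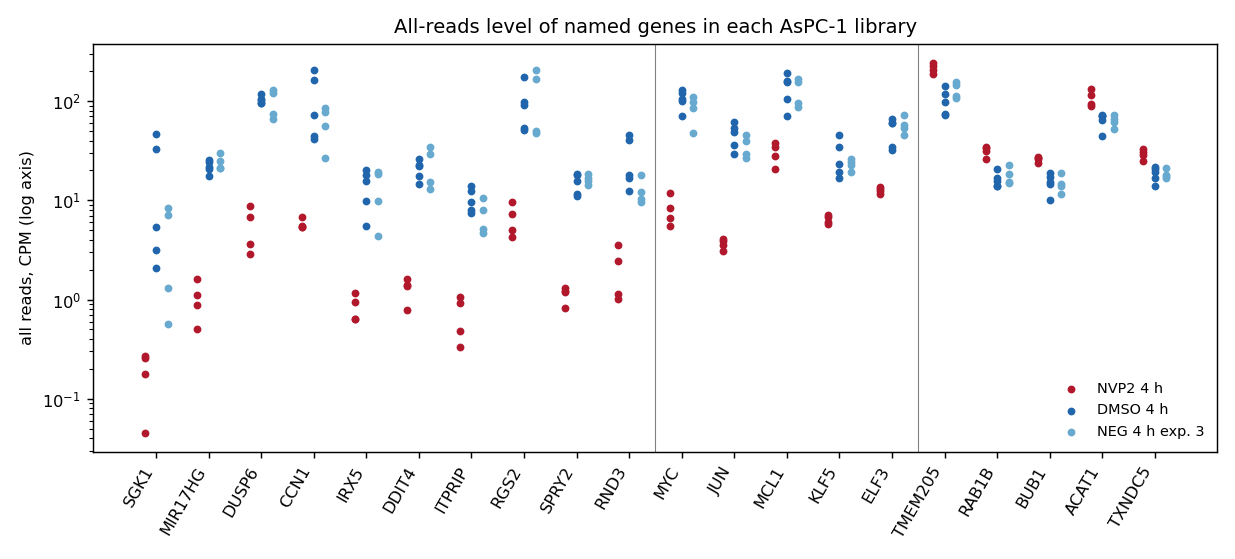
All-reads CPM on a log axis in each AsPC-1 library (red NVP-2, dark blue DMSO 4 h, light blue NEG of experiment 3) for the 10 genes with the largest loss, for MYC, JUN, MCL1, KLF5 and ELF3, and for genes that were higher. In the left and middle parts every NVP-2 point of a gene lies below its control points, and in the right part above them. The choice of genes required this in the left and right parts.

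AU-rich elements in 3′UTRs are a known mark of short-lived mRNAs, so the annotated 3′UTRs were searched on the sense strand for the letters TATTTAT. They are shown for the genes of the largest loss that hold them, with the motif in capitals and 11 bases on each side (29 bases, 5′ to 3′ along the transcript, GRCh38, the site nearest the stop codon). SGK1 has 1 such site at chr6:134169477-134169505 on the minus strand, CCN1 has 2, the first at chr1:85583559-85583587 on the plus strand, and ITPRIP has 3, the first at chr10:104312438-104312466 on the minus strand. Overlapping sites were counted separately. In ITPRIP the second site overlaps the first within the bases shown, and only the first is in capitals. SPRY2 has 2, the first at chr13:80336122-80336150 on the minus strand, and RND3 has 1 at chr2:150468238-150468266 on the minus strand.
SGK1: aaaatgggcatTATTTATgtttttttttt
CCN1: actgaatgtttTATTTATcaaaatgtagc
ITPRIP: gcaaatttcctTATTTATttatggcccat
SPRY2: agtgtaaagaaTATTTATttgaagtttta
RND3: tgtttccgcagTATTTATtaaaacatact
DUSP6, IRX5, DDIT4 and RGS2 do not hold these letters in the annotated 3′UTR, and MIR17HG has no coding transcript.

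Over 12188 genes with an annotated 3′UTR, 35.3% held the letters TATTTAT. Among genes lower against both controls 318 of 759 (41.9%) held them, and among the others 3980 of 11429 (34.8%). The difference lay in short 3′UTRs. With a 3′UTR of up to 500 bases, 18.3% of the lower genes and 8.3% of the others held the motif, and from 501 to 1000 bases 30.6% and 20.1%. Beyond 1000 bases the shares were close, at 35.2% and 33.8% up to 2000 bases and 57.1% and 53.3% up to 4000, and above 4000 bases the order turned, at 73.2% and 77.5%. These are descriptions of annotated sequence with no test, and a match of letters is not a site in use.

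Most immediate-early genes and most genes that feed back on growth factor signals were lower. Of 31 immediate-early and AP-1 genes tested, 27 were lower against DMSO, 22 were lower against NEG and 0 were higher, with a median log2 fold change of −2.19, where 8.39% and 6.54% of all genes were lower. JUN, a subunit of AP-1 (chromosome 1, 58776845 to 58784048, minus strand), had 4.03, 3.11, 3.93 and 3.57 CPM after NVP-2, 36.5, 54.2, 29.4, 61.6 and 49.1 in DMSO, and 45.1, 39.3, 26.4 and 29.5 in NEG. Its groups did not overlap, and it fell by 3.65 on the log2 scale (SE 0.25, edgeR adjusted p = 4.83e-05). ZFP36L1, which encodes a protein that binds AU-rich elements and speeds mRNA decay, had 62.1 to 102 CPM against 161 to 242 in DMSO and fell by 1.34 (SE 0.20, edgeR adjusted p = 0.00191), with T>C shares in DMSO of 51.1% for ZFP36L1 and 48.6% for JUN. EGR1, IER2, KLF2 and ZFP36 were lower against both controls, at −3.44, −2.19, −2.71 and −3.35 against DMSO. FOS, the partner of JUN, did not pass. FOS had 1.18, 0.99, 2.51 and 1.52 CPM after NVP-2 and 2.59, 2.51, 5.45, 6.53 and 1.27 in DMSO, groups that overlap (log2 fold change −1.24, SE 0.48, edgeR adjusted p = 0.122), with a T>C share of 69.1% in DMSO and 38.8% after NVP-2.

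Of 13 feedback genes of the ERK pathway, 10 were lower against DMSO and 8 against NEG, beside 8.39% and 6.54% of all genes. Their median was −2.92, and 0 were higher. Beside DUSP6 and SPRY2, the phosphatase genes DUSP1 and DUSP4 and the Sprouty genes SPRY1 and SPRY4 were lower against both controls, at −2.92, −2.29, −3.55 and −2.92 against DMSO. PHLDA1, a growth factor response gene, had 9.69, 8.20, 23.9 and 18.1 CPM after NVP-2 and 83.6, 109, 124, 140 and 136 in DMSO (log2 fold change −2.97, SE 0.34, edgeR adjusted p = 0.000476). The ETS factors ETV4 and ETV5, also targets of ERK, had log2 fold changes of 0.94 and 0.03 and did not pass.

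Early targets of TGF-beta, BMP and Notch were lower in 8 of 12 genes against DMSO and in 6 against NEG. These counts stand beside 8.39% and 6.54% of all genes, and the list had a median of −2.21 with 0 higher. ID1, an inhibitor of basic helix-loop-helix factors, had 6.19, 7.20, 6.13 and 5.78 CPM after NVP-2, 56.8, 70.7, 45.1, 14.4 and 15 in DMSO, and 32.1 to 48.0 in NEG. The DMSO libraries of set C were lowest, still above NVP-2 (log2 fold change −2.67, SE 0.48, edgeR adjusted p = 0.00545). HES1, the Notch effector, had 4.52 to 11.5 CPM against 33.8 to 46.3 in DMSO (−2.47, SE 0.27, edgeR adjusted p = 0.000356). Of 16 NF-kB targets 5 were lower against DMSO and 3 against NEG, beside the same 8.39% and 6.54% of all genes. NFKBIA, which encodes the inhibitor that holds NF-kB in the cytoplasm, had 21.0, 25.1, 9.79 and 9.22 CPM against 116, 128, 129, 155 and 125 (−3.00, SE 0.32, edgeR adjusted p = 0.000325). TNFAIP3, the deubiquitinase A20, had 13.6 to 36.9 CPM against 42.2 to 158 (−1.97, SE 0.42, edgeR adjusted p = 0.0131), a call lost without both set C libraries. The cytokine gene CXCL8 and the factor genes NFKB1, NFKB2 and RELB did not pass, at −1.41, 0.20, 0.23 and −0.31.

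**Figure D4:**
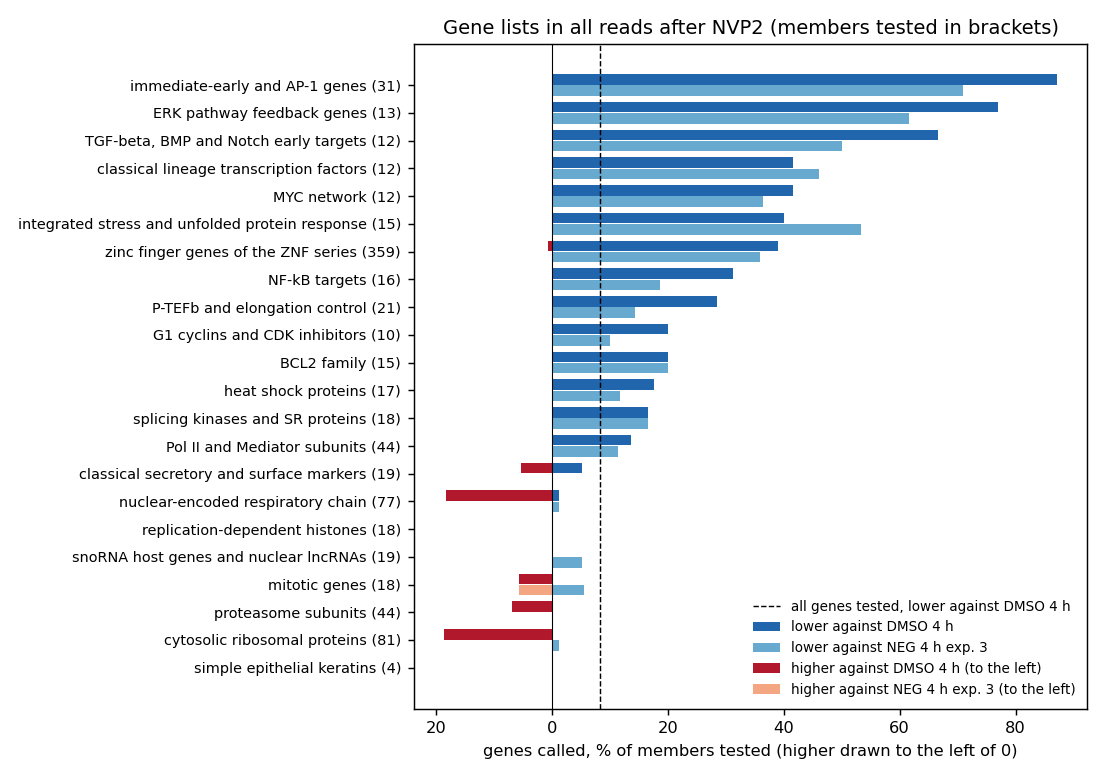
Percentage of the tested genes of each list that were called lower (bars to the right) or higher (bars to the left) after NVP-2 against DMSO 4 h and against NEG of experiment 3, with the number tested in brackets and the 8.39% of all genes lower against DMSO as a dashed line. Immediate-early genes stand at the top with 27 of 31 lower, and ribosomal and respiratory genes have bars to the left against DMSO only.

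MYC and MCL1, transcripts known to need constant synthesis, both fell. MYC had 8.40, 6.58, 11.8 and 5.57 CPM of all reads after NVP-2, 71.2, 105, 100, 129 and 120 in DMSO, and 109, 84.6, 47.6 and 97.9 in NEG, with no overlap (log2 fold change −3.70, SE 0.28, edgeR adjusted p = 5.97e-05). Among 12 genes of the MYC network 5 were lower against DMSO and 4 against NEG, beside 8.39% and 6.54% of all genes. MNT and MXD1, repressors that pair with MAX, were lower against both controls (−1.52 and −1.32), while MAX itself and MXI1 were at 0.37 and −0.18 and did not pass. MCL1, the antiapoptotic BCL2 family member with a short-lived protein (chromosome 1, 150560895 to 150579738, minus strand), had 20.8, 27.8, 38.2 and 34.4 CPM after NVP-2, 71.5, 104, 160, 192 and 157 in DMSO, and 96.5, 86.2, 157 and 168 in NEG. All NVP-2 libraries lay below all controls (−2.17, SE 0.31, edgeR adjusted p = 0.00153), and the T>C share of MCL1 went from 46.6% to 6.66%.

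Of 15 members of the BCL2 family 3 were lower against DMSO, MCL1 and the p53-responsive BH3 genes BBC3 (−1.80) and PMAIP1 (−1.23), and 3 against NEG, beside 8.39% and 6.54% of all genes. The median of the family was 0.21 against DMSO and −0.23 against NEG. BCL2L1, which encodes the antiapoptotic BCL-XL, had 209, 378, 254 and 461 CPM after NVP-2 and 499, 258, 405, 163 and 132 in DMSO. Its groups overlapped, its log2 fold change of 0.17 (SE 0.40) did not pass (edgeR adjusted p = 0.83), and its sign turned in 6 of 21 alternative settings. BAX and BAD, proapoptotic members, were at 0.86 and 0.93 and did not pass.

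Among 21 genes that control elongation, 6 were lower against DMSO and 3 against NEG, beside 8.39% and 6.54% of all genes. Their median was −0.23, and 0 were higher. The cyclins that activate CDK9, CCNT1 and CCNT2, and the elongation factor gene ELL were lower against both controls, at −1.41, −1.23 and −1.53 against DMSO. CDK9, the target of the drug, had 0.54, 0.45, 1.29 and 0.62 CPM after NVP-2 and 1.11, 1.43, 1.01, 1.25 and 1.46 in DMSO, from 122 and 147 reads per library on average. The ranges of CDK9 overlapped and the change did not pass (−0.78, SE 0.36, edgeR adjusted p = 0.189), while its T>C share fell from 29.9% to 38% in DMSO to at most 1.25%. HEXIM1, the P-TEFb inhibitor whose expression is used as a readout of P-TEFb activity, had 5.32, 5.06, 3.38 and 2.31 CPM after NVP-2, 9.23, 10.4, 4.97, 9.14 and 10.3 in DMSO, and 12.9, 12.4, 4.60 and 5.51 in NEG. In DMSO and NEG HEXIM1 was lower in set B, so groups overlapped. The call against DMSO (−1.13, SE 0.30, edgeR adjusted p = 0.0342) was not made against NEG (−1.17, adjusted p = 0.153) without the set as a block and was made with it (adjusted p = 0.00404). The call against DMSO was lost in 11 of 21 alternative settings, among them without either of the NVP-2 libraries 2.1 and 2.2 and without any 1 of DMSO 1.1, 1.2, 2.1 and 2.2. LARP7 (402 to 757 CPM after NVP-2, 445 to 618 in DMSO) and the NELF subunit NELFCD (116 to 269 and 137 to 258) overlapped fully.

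Transcription factors of the classical pancreatic cancer program split into some that fell and some that did not. Of 12 tested, 5 were lower against DMSO and 0 higher, with a median of −1.0, and 6 of 13 were lower against NEG. Over all genes 8.39% and 6.54% were lower. KLF5 (chromosome 13, 73054976 to 73077541, plus strand), the Krüppel-like factor studied in these cells, had 6.82, 7.10, 6.08 and 5.76 CPM of all reads after NVP-2, 16.8, 19.5, 23.3, 45.3 and 34.3 in DMSO, and 24.2, 19.2, 23.0 and 25.9 in NEG. Groups did not overlap, and KLF5 fell by 2.1 on the log2 scale (SE 0.30, edgeR adjusted p = 0.00142). Reads of the disrupted endogenous gene and of the tagged copy cannot be told apart in these counts. The KLF5 T>C share was 41.6%, 42.2%, 50.4%, 39.4% and 42.5% in DMSO and 12.1%, 12.9%, 9.96% and 15% after NVP-2.

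ELF3, an epithelial ETS factor (chromosome 1, 202007945 to 202017183, plus strand), had 11.7, 13.1, 13.6 and 12.4 CPM after NVP-2 and 60.8, 65.8, 34.7, 59.9 and 32.0 in DMSO (log2 fold change −1.99, SE 0.25, edgeR adjusted p = 0.000828). GATA6, a marker factor of the classical subtype, had 2.01, 2.21, 1.24 and 1.29 CPM against 3.32, 4.29, 3.81, 4.83 and 4.90 (−1.32, SE 0.26, edgeR adjusted p = 0.00821), and lost its call when both DMSO libraries of set C were left out. KLF4 was also lower against both controls (−3.29). HNF4A, the hepatocyte nuclear factor of the classical program, had 5.40, 5.71, 23.0 and 20.6 CPM after NVP-2, 11.9, 15.3, 22.4, 15.4 and 12.1 in DMSO, and 9.26, 9.67, 26.2 and 32.0 in NEG. In set B the NVP-2 values of HNF4A lay near the DMSO value and below both NEG values, and in set A they lay below all controls. The change did not pass against DMSO (−0.16, SE 0.44, edgeR adjusted p = 0.859) or against NEG (−0.50, SE 0.59, edgeR adjusted p = 0.72), and with the set as a block HNF4A was lower against NEG (−0.61, SE 0.16, edgeR adjusted p = 0.0294). EHF, another ETS factor, had 48.8 to 142 CPM after NVP-2 and 63.1 to 102 in DMSO, fully overlapping.

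Of 19 secreted and surface markers of the classical state, TFF1 alone was lower and LGALS4 alone higher against DMSO, and 0 passed against NEG. With the set as a block 4 were higher against NEG and 0 lower, beside 1.90% and 11.5% of all genes: the mucin MUC13, the adhesion molecules CEACAM6 (log2 fold change 0.64, edgeR adjusted p = 0.0354) and CDH17, and LGALS4. The list had a median of 0.77 from a T>C share of 4.3% in DMSO. TSPAN8, a tetraspanin, had 2073, 1276, 813 and 819 CPM after NVP-2 and 885, 811, 780, 489 and 538 in DMSO (0.83, SE 0.30, edgeR adjusted p = 0.0962). LGALS4, an intestinal galectin, had 176 to 211 CPM against 63.7 to 139 in DMSO and rose (0.99, SE 0.23, edgeR adjusted p = 0.0219), a call not made against NEG (109 to 167 CPM, 0.63, adjusted p = 0.0753) and made there with the set as a block (0.64, adjusted p = 0.036). The keratins KRT8 and KRT18 had log2 fold changes of 0.68 and 0.79 and did not pass. Of the Moffitt Classical list, 161 genes were tested, with 10 lower, among them ELF3, GATA6 and BAMBI, and 10 higher, among them VIL1 and SELENBP1, where 8.39% of all genes were lower and 3.43% higher. Against NEG the split was 8 lower and 2 higher, with the set as a block 16 lower and 12 higher, and on the scale of the genes with the least new RNA 21 lower and 3 higher against DMSO.

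The Moffitt Basal-like list, which marks the other subtype, had 17 of 115 tested genes lower against DMSO and 13 of 116 against NEG, beside 8.39% and 6.54% of all genes, with a median of −0.17 against DMSO and 0.01 against NEG. DDIT4 and PHLDA1, described above, belong to it, as do the EMT factor SNAI2 (−4.05) and the ERBB ligand EREG (−1.86), all lower against both controls. KRT17, a basal keratin, was its only higher gene (3.07, SE 0.81, edgeR adjusted p = 0.0332), and this rests on NVP-2 1.2 at 2.13 CPM, with the other NVP-2 libraries at 0.12 to 0.26 and DMSO at 0.06 to 0.10. NEG 3.2 was as high, at 2.06 CPM. SERPINB5, a serpin of epithelial cells, had 20.5, 9.55, 31.0 and 26.2 CPM against 56.5, 35.3, 28.8, 13.9 and 11.6 in DMSO, with full overlap (−0.41, SE 0.47, edgeR adjusted p = 0.626). Of the 69 direct KLF5 targets that the study listed for AsPC-1, 18 were lower against DMSO, 17 against NEG and 0 higher, with a median of −0.44. Over all genes 8.39% and 6.54% were lower. The study chose these targets by their fall in degrader libraries of this series against libraries with the inactive analogue, which may include the NEG libraries used here. Their median T>C share in DMSO was 20.8%. HES1, JUNB, DUSP4, GLI2 and ELF3 had the lowest values among those lower against both controls, together with MIDN, from −2.47 to −1.99.

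Stress genes included both lower genes and genes that did not pass. Of 15 genes of the integrated stress and unfolded protein response 6 were lower against DMSO and 8 against NEG, beside 8.39% and 6.54% of all genes, with a median of −0.85. DDIT4, CHAC1, DDIT3, SESN2, CEBPB and CEBPG were lower against both (−4.0, −3.34, −2.66, −2.43, −2.30 and −1.13). ATF4, the factor that drives this response, had 126.2, 143, 59.8 and 73.6 CPM after NVP-2 and 210, 206, 159, 168 and 170 in DMSO. All NVP-2 values of ATF4 lay below DMSO, but the call was made against NEG (−1.35, edgeR adjusted p = 0.0215) and not against DMSO (−0.85, SE 0.26, adjusted p = 0.0556). On the scale of the genes with the least new RNA it was made against DMSO too (−1.24, edgeR adjusted p = 0.00937). ATF4 became called in 10 of 21 alternative settings. ASNS, the asparagine synthetase gene and an ATF4 target, had 91.6 to 293 CPM against 66.5 to 196 and did not pass (0.41). Of 17 heat shock genes 3 were lower against DMSO, the cochaperone genes DNAJB1 (−1.55) and BAG3 (−0.89) and the factor HSF2 (−1.26), and 2 against NEG. These counts stand beside 8.39% and 6.54% of all genes, and the list had a median of 0.17 against DMSO. HSPD1, the mitochondrial chaperonin, and HSPB1, a small heat shock protein, had log2 fold changes of 0.33 and 0.17 and overlapped with DMSO.

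Regulators of the transcription and splicing machinery were also divided. Of 18 splicing kinases and SR proteins, the kinases CLK1 (−3.44), CLK4 (−1.54) and DYRK1A (−1.34) were lower against both controls, beside 5.79% of all genes, and no SR protein gene passed. Of 44 subunits of RNA polymerase II and Mediator 6 were lower against DMSO and 5 against NEG, all of them Mediator subunits: MED9 (−2.19), MED18 (−2.08), MED26 (−2.03), MED10 (−1.19) and MED17 (−1.15) against both, and MED7 (−0.98) against DMSO. These counts stand beside 8.39% and 6.54% of all genes, and the median of the list was −0.09 against DMSO. The polymerase subunit POLR2E had 401 to 616 CPM after NVP-2 and 443 to 522 in DMSO (0.11). CDKN1B, which encodes the CDK inhibitor p27, was the G1 regulator with the lowest value (−2.96, lower against both controls), and CCND1, cyclin D1, had 103 to 196 CPM against 94.9 to 137 and did not pass (0.30).

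Zinc finger genes of the ZNF series, many of which encode KRAB repressors, were the largest list, and 140 of 359 (39.0%) were lower against DMSO and 129 against NEG, beside 8.39% and 6.54% of all genes. Their median was −0.93 and their median T>C share in DMSO 34.2%. ZNF92 and ZNF16 had the lowest values, at −3.81 and −3.78. The ZNF genes with the most reads, ZNF706 and ZNF638, are not typical of the list, at 0.13 and −0.37, and neither passed.

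Transcripts of the basic machinery of the cell had little new RNA, and few of them were lower. The T>C share in DMSO had a median of 3.8% over 81 ribosomal protein genes, 5.2% over 77 respiratory chain genes and 8.6% over 44 proteasome genes, and after NVP-2 of 0.48%, 0.70% and 0.90%. Against DMSO 15 ribosomal protein genes, 14 respiratory genes and 3 proteasome genes were higher, beside 3.43% of all genes, with list medians of 0.41, 0.49 and 0.30. None of these lists had a higher gene against NEG without the set as a block. With it 0, 1 and 2 genes were higher, beside 1.90% of all genes. On the scale of the genes with the least new RNA the medians against DMSO were 0.00, 0.08 and −0.10, with 2, 0 and 0 genes higher. RPS24, a small subunit protein, had a T>C share of 2.40% to 2.75% in DMSO and of 0.26% to 0.34% after NVP-2, and a log2 fold change in all reads of 0.33 (SE 0.17, edgeR adjusted p = 0.255). Of 18 mitotic genes, 0 were lower against DMSO and AURKA, the Aurora A kinase, was lower against NEG (−0.92, edgeR adjusted p = 0.0462). On the scale of the genes with the least new RNA, AURKA was lower against DMSO too (−1.09, edgeR adjusted p = 0.00651). Of 19 snoRNA host genes and nuclear noncoding RNAs, 0 passed against DMSO and 1 was lower against NEG. MALAT1, the most abundant of them, had 41931 to 255869 CPM after NVP-2 and 98029 to 188022 in DMSO, and its T>C share went from 5.18% to 6.49% down to 0.75% to 1.15%. None of 18 replication-dependent histone genes passed, with a median of −0.36, and these transcripts mostly lack the poly(A) tail by which the RNA was primed.

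Of 13931 genes tested against both controls, 169 (1.21%) had all 4 NVP-2 libraries above all 9 control libraries. Only 16 (0.115%) were called higher against both controls, and 8 of these 16 had at least 10 CPM after NVP-2 and no overlap with the 9 control libraries. The 6 with the largest values are named, again as a description. TMEM205, a membrane protein (chromosome 19, 11342776 to 11346518, minus strand), had 187, 245, 224 and 206 CPM after NVP-2, 141, 73.1, 117, 73.7 and 97.4 in DMSO, and 107, 111, 156 and 146 in NEG (log2 fold change 1.11, SE 0.22). RAB1B (chromosome 11, 66268590 to 66277492, plus strand) had 26.3, 31.3, 34.1 and 33.9 CPM, 20.8, 15.7, 17, 14.0 and 13.9 in DMSO, and 14.8, 15.4, 22.9 and 18.4 in NEG (0.96, SE 0.18). BUB1, a kinase of the spindle checkpoint (chromosome 2, 110637528 to 110678063, minus strand), had 24.0, 26.7, 26.0 and 27.2 CPM against 10.2 to 18.9 in DMSO and 11.5 to 19.0 in NEG (0.77, SE 0.19). ACAT1, a mitochondrial thiolase (chromosome 11, 108116695 to 108147603, plus strand), had 89.9, 94.5, 115 and 133 CPM against 44.1 to 72.0 and 52.9 to 71.9 (0.76, SE 0.20). TXNDC5, a disulfide isomerase of the endoplasmic reticulum (chromosome 6, 7881517 to 7910788, minus strand), had 25 to 33.0 CPM against 13.9 to 21.6 in DMSO (0.68, SE 0.17), and its read-through gene BLOC1S5-TXNDC5 shares nearly all of its reads. T>C shares were 1.08% to 15% in DMSO and 0.21% to 1.32% after NVP-2, and the calls of all 6 were lost on the scale of the genes with the least new RNA, with DMSO 12 h as the control and with libraries summed to 2 against 2. In all, of 21 alternative settings the call was lost in 12 for TXNDC5 and BLOC1S5-TXNDC5, in 10 for ACAT1, in 9 for BUB1, in 5 for TMEM205 and in 4 for RAB1B. Leaving out the single library NVP-2 2.2 ended the calls of BUB1, ACAT1, TXNDC5 and BLOC1S5-TXNDC5, as did other single libraries: NVP-2 1.2 and DMSO 1.2 for BUB1, NVP-2 2.1 and DMSO 1.2, 2.1 and 2.2 for ACAT1, and NVP-2 2.1 and DMSO 1.1, 2.1 and 2.2 for TXNDC5.

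**Figure D5:**
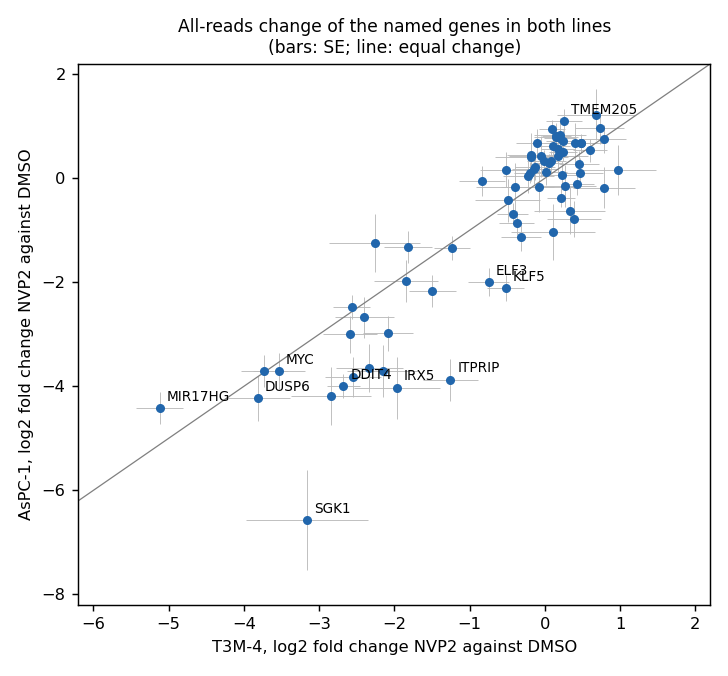
All-reads log2 fold change after 4 h of NVP-2 against DMSO in AsPC-1 (vertical axis) and in T3M-4 (horizontal axis) for the named genes, with SE bars and a line of equal change. MYC and DUSP6 lie near the line, while KLF5, ELF3, ITPRIP and SGK1 lie below it with differences that did not pass the test.

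The same drug was given for 4 h to T3M-4, a basal-like pancreatic cancer line with the same KLF5 replacement, and the difference between the lines was tested in 16702 genes over 17 libraries. Line and the batch of the AsPC-1 arm cannot be told apart there. Within this fit NVP-2 lowered 1425 genes in AsPC-1 (8.53%) and 691 in T3M-4 (4.14%), counts that are no test of a difference. SPRY2 fell by 3.71 in AsPC-1 and by 3.73 in T3M-4 in this fit, MYC by 3.70 and 3.54, and HES1 by 2.47 and 2.57, with differences of 0.02, −0.17 and 0.10 (SE 0.38, 0.43 and 0.32). KLF5 fell by 2.11 in AsPC-1, where it had 28.1 CPM in DMSO, and by 0.52 in T3M-4, where it had 125 CPM, but the difference of −1.59 (SE 0.35) did not pass (edgeR adjusted p = 0.155). ELF3 gave −2.0 and −0.75 (difference −1.25, SE 0.37, edgeR adjusted p = 0.332), and ITPRIP gave −3.87 and −1.26 (difference −2.62, SE 0.52, edgeR adjusted p = 0.103). A single gene of the 16702 passed (0.00599%), with 1508 at an unadjusted p under 0.05 and 137 called by DESeq2. FLRT3, a transmembrane cell adhesion protein (chromosome 20, 14322985 to 14337614, minus strand), had 4.00 ± 0.60 CPM (SD, n = 4) after NVP-2 and 17 ± 2.85 (n = 5) in DMSO in AsPC-1, and 2.11 ± 0.13 (n = 4) and 2.77 ± 0.31 (n = 4) in T3M-4. The FLRT3 difference was −1.70 (SE 0.25, edgeR adjusted p = 0.0447), from −2.09 in AsPC-1 and −0.39 in T3M-4, and it was chosen after its values were seen, since its T3M-4 level is below the minimum for named genes.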

How the data were processed

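SLAM-seq libraries of AsPC-1 cells were used: 4 treated with NVP-2 and 5 with DMSO for 4 h, with 4 NEG and 4 DMSO 12 h libraries of batch 2 as further controls and 8 T3M-4 libraries. The authors primed 3′ end libraries with oligo(dT), added no spike-in, and used slamdunk with default settings to map reads to build hg38 (GRCh38) and to count them per GENCODE v44 3′UTR exon, summed by gene. The deposited values are raw counts per gene (29794 genes) of T>C reads and of all reads, in which 1 all-reads column of another group and 17 empty columns were left out. Genes were tested with edgeR 4.0.16 in R 4.3.3 (filterByExpr, TMM, glmQLFit, glmQLFTest, only the groups compared) at a Benjamini-Hochberg adjusted p under 0.05, and each SE was derived from the F statistic and the log2 fold change. The odds test fitted T>C and other reads with the library as a block. CPM use TMM over the 13 libraries of NVP-2, DMSO 4 h and NEG. Exceptions are DCLK1, scaled to library totals without TMM, and the comparison of the lines, where CPM use TMM over its 17 libraries. Library shares were compared by exact permutation tests in R. DESeq2 1.42.0, scalings, blocks, other controls and left-out libraries were alternatives, and scripts were tested on simulated data. The library sets A, B and C come from the 500 most variable genes among control libraries and were defined, with 2 alternatives that use them, after the data were seen.

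Members and lists were chosen with earlier results of these data known. Named were the 10 lowest genes that were lower against both controls, had no overlap with 9 control libraries and at least 10 CPM in DMSO, the 6 highest by the mirrored rule, the 2 most abundant tested genes of each list, KLF5, CDK9, MYC, MCL1, HEXIM1, FOS, JUN, ELF3, GATA6, HNF4A and SERPINB5, and the 3 genes that kept most and 3 that kept least of their T>C share with at least 500 reads per library, of which KLK8 (2.50% in DMSO, 2.95% after NVP-2) is among the former. Other genes serve as examples from the lists or were chosen after their values were seen. Symbols of the study's lists that were not found were replaced by the current symbol where they were an older name of a gene. The other lists were matched by their symbols, or by a pattern of symbols, as written. Sequences are from GRCh38 with GENCODE annotation.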

Additional observations from a re-analysis of the deposited data

Results flagged for a closer look

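Among the named genes 219 groups of 4 or 5 libraries were checked for a library far from the rest of its group, and 9 had one, where about 1 in 20 is reached by chance. After NVP-2, CCN1 was highest in replicate 1.1 (6.74 CPM against 5.37 to 5.53 in the others) and CDKN2A was lowest in replicate 1.2 (125.9 CPM against 264 to 290). In DMSO, replicate 1.3, the library of set B, was highest for the proteasome genes PSMD1 (2061 CPM against 714 to 1091) and PSMC2 (521 CPM against 215 to 268), and lowest for HEXIM1 (4.97 CPM against 9.14 to 10.4). In NEG, replicate 3.3 was highest for BCL2L1 (657 CPM against 283 to 309) and RPS2P5 (173 CPM against 16.8 to 28.7) and lowest for KLK8 (1.07 CPM against 2.68 to 2.77), and replicate 3.4 was highest for PHLDA1 (146 CPM against 92.9 to 101). Between the lines, the NVP-2 effect on FLRT3 differed by −1.70 on the log2 scale (SE 0.25, edgeR adjusted p = 0.0447).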

How the results depend on the processing

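The 1667 genes called in all reads against DMSO became 2707 with DESeq2 (1593 lower, 1114 higher), 988 with the full replicate number as a block, 1018 with batch as a term (960 lower, 58 higher), 662 with DMSO 12 h (658 lower, 4 higher), 967 with NEG, 2501 with the scaling on genes with the least new RNA, 568 without both set C libraries, 0 with libraries summed to 2 against 2 (2271 at an unadjusted p under 0.05), and 837 (without NVP-2 2.2) to 2063 with 1 library left out, among them 1081, 1032 and 918 without DMSO 1.2, 2.1 and 2.2; without TMM they split into 1734 lower and 133 higher. The 967 called against NEG became 1540 with DESeq2, 1623 with that scaling, 1906 with the library set as a block, and 598 (without NEG 3.2) to 885 with 1 left out, among them 612, 628 and 609 without NVP-2 2.2, NEG 3.1 and NEG 3.4. The 3506 called in T>C reads became 1024 when summed and 10748 on the all-reads scale, and were 2663 to 3517 with 1 left out; the 12007 called in odds were 11707 to 12070. The share difference of −8.48 was −8.37 over means per experiment (exact permutation p = 0.333, the smallest possible), −8.35 with the replicate block (exact permutation p = 0.125, the smallest possible) and −8.66 to −8.33 with 1 left out. The line difference called 137 genes with DESeq2, 0 without a filter, 0 with NEG as the control and 0 to 3 with 1 left out. Replicate numbers are shared between groups without pairing them: deviations of same-numbered libraries correlated at 0.29, 0.35, 0.0044 and −0.14. Of 1512 values of named genes, 1338 kept side and direction, 98 were no longer called, 37 became called and 39 turned sign, none of these past the threshold. These log2 fold changes were, without TMM, LARP7 −0.11 and POLR2E −0.10; without NVP-2 1.2, ASNS −0.036 and EHF −0.28; with batch as a term, BCL2L1 −0.53, KLK8 0.45, RPS3 −0.0052 and SERPINB5 0.17; with DMSO 12 h, BCL2L1 −0.43, CCND1 −0.043, KLK8 0.59, MALAT1 0.54 and SERPINB5 0.40; with the set block, BCL2L1 −0.29 and KLK8 0.58; against NEG, ATP5MG −0.25, BCL2L1 −0.25, H4C3 0.21, KLK8 0.68, MALAT1 0.39, POLR2E −0.10, PTTG1 −0.034 and SERPINB5 0.25; on the scale of genes with the least new RNA, ATP5MG −0.35, BCL2L1 −0.27, CCND1 −0.12, CDKN2A −0.11, EHF −0.34, HSPB1 −0.27, HSPD1 −0.062, IFI35 −0.0051, LARP7 −0.28, NELFCD −0.16, POLR2E −0.31, PSMC2 −0.24, RPS24 −0.077 and ZNF706 −0.25; and without set C, BCL2L1 −0.24 and KLK8 0.42. The causes were not tested. Depth limits genes of few reads, such as CDK9.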
